A study of Rattus norvegicus with 57 samples.

Results

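The measurement described here is how far the effect of 3 mg/kg cisplatin on gene expression in rat kidney moved between day 5 and day 8. For every gene it is the day 8 effect (3 mg/kg minus control on day 8) minus the day 5 effect (3 mg/kg minus control on day 5), on the scale log2(signal + 16), with groups read from the sample titles. It uses 20 of the 57 arrays of the series and all 11683 genes that passed a filter on dim probe sets. The groups are 5 rats given 3 mg/kg cisplatin and killed on day 8, 5 saline controls killed on day 8, 5 rats given 3 mg/kg and killed on day 5, and 5 saline controls killed on day 5. All were male Han Wistar [Crl:WI(Han)] rats, 8 weeks old, injected once into the peritoneum with cisplatin in saline or with saline alone. The design states 6 animals a group, and 5 arrays a group were analysed here. RNA came from kidney tissue enriched in cortex, so every tubule segment, vessels and resident immune cells contribute to 1 value. The rats of the 2 days are different animals, so the change compares groups and follows no individual. A positive change means that the day 8 effect was higher than the day 5 effect, and a negative change that it was lower.

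Cisplatin is a platinum drug that crosslinks DNA and accumulates in the proximal tubule, the segment that reabsorbs most of the filtrate. Damaged tubule cells switch on targets of p53, the DNA damage transcription factor, and make injury proteins such as Havcr1 (kidney injury molecule 1) and Lcn2 (lipocalin 2), some of which reach the urine. The thick ascending limb lies further along the nephron, reabsorbs salt without water, and makes uromodulin and epidermal growth factor. Injured tubule cells can lose the transporters of their segment and gain keratins and other genes of a less specialised epithelium.

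Between day 5 and day 8 the effect on the thick ascending limb gene Umod fell the most of all genes. Egf of the same segment fell too. So did the proximal tubule organic anion transporters Slco1a1, Slco1a6 and Slco1a3 and the brush border peptidases Mep1b, Mme and Anpep. Clusterin, Timp1, the fibrinogen chains Fgb and Fgg, Krt18 and the efflux pump Abcc2 rose. Cdkn1a, Mdm2, Ccng1, Havcr1 and Spp1 were high on both days, and their change did not pass the test. Of 11683 genes, 1909 (16.3%) passed an adjusted p of 0.05 for the change with limma, 1011 of them higher (8.65%) and 898 lower (7.69%). Of these, 61 were higher and 108 lower by 2-fold or more, and the median change over all genes was 0.04. The day 8 effect passed for 4360 genes (37.3%) and the day 5 effect for 1028 (8.8%). In the same direction on both days were 531 genes, which is 12.2% of the day 8 genes and 51.7% of the day 5 genes. Each treated rat was also set against the mean of its same-day controls. In 1245 of the 1909 genes the 5 rats of day 8 then did not overlap the 5 rats of day 5, and over all genes 8.55% lay wholly above and 6.63% wholly below.

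**Figure D1:**
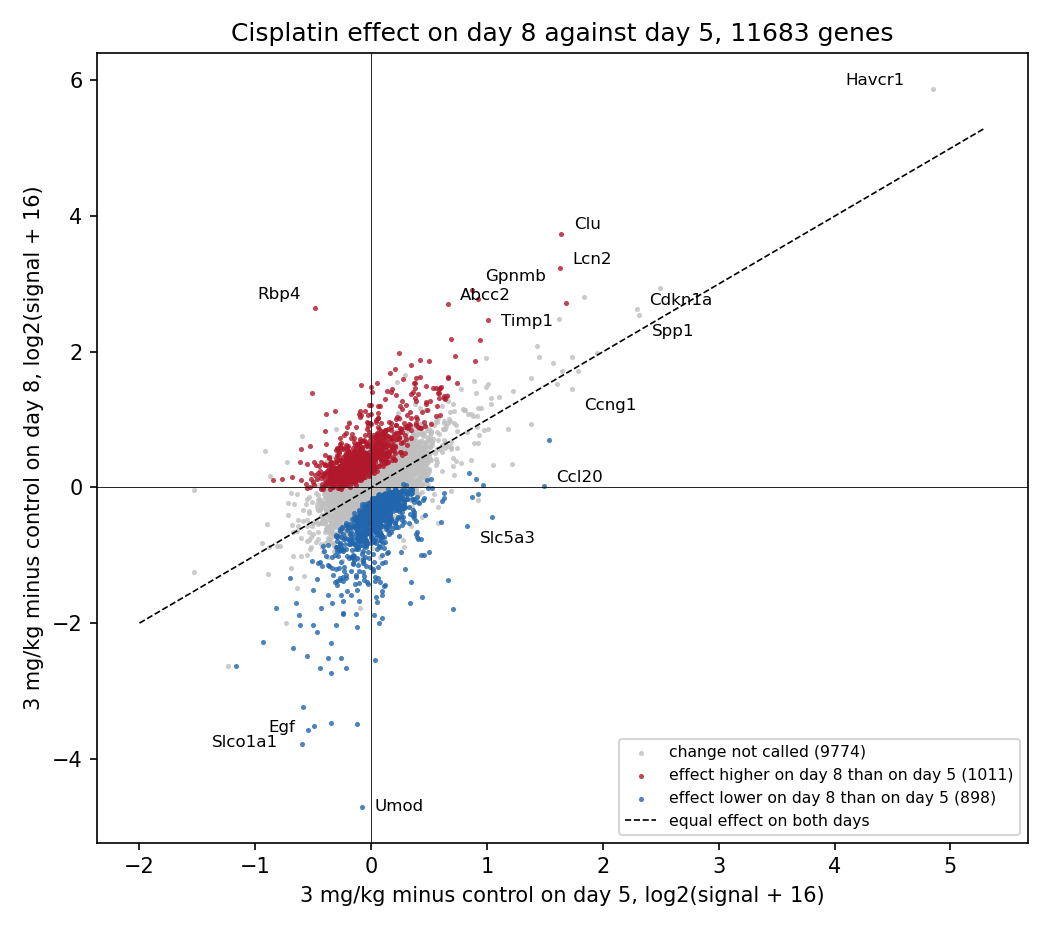
Each point is 1 gene, with the day 5 effect of 3 mg/kg (3 mg/kg minus control) on the horizontal axis and the day 8 effect on the vertical axis, both as differences in log2(signal + 16). The 1011 red genes were higher and the 898 blue genes lower in the change, and the dashed line marks equal effects. Umod lies at -4.71 on day 8 and -0.08 on day 5, while Havcr1 is high on both days.

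The 3 mg/kg rats of day 8 varied more than any other of the 4 groups. Their arrays correlated with each other at 0.961 or more, against 0.987 or more within each of the other 3, and 56 genes had an SD above 1 on the log2 scale, against 18 in day 8 controls, 11 in 3 mg/kg rats of day 5 and 6 in day 5 controls. The fit pools the spread of all 12 groups of the series, so for genes that vary more in that group its errors are too small. When only the 4 groups were fitted, 1088 genes passed, 573 higher and 515 lower of 11683. Counts on the lists below stand beside these and beside the 8.65% higher and 7.69% lower of the main fit. Among day 8 controls, rats 1 and 2 had Slco1a6 signals of 949 and 1140.5, against 233 to 399 in the other 3, and without these rats 1588 genes passed, 1393 of them shared. The labelled tissue was checked by 5 proximal tubule markers. Their summed signal was 10314 to 11345 in 3 mg/kg rats on day 8, against 9778 to 11291 in day 8 controls. It was 11373 to 13345 in 3 mg/kg rats on day 5, against 11342 to 12517 in day 5 controls. Of the 5 markers, 1 passed as lower for the change and 0 as higher.

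Genes of the thick ascending limb mostly fell. Of 16 measured on a list for this segment, 13 fell and none rose, with a median change of -1.08; the median effect was -1.12 on day 8 and -0.17 on day 5. Umod encodes uromodulin, the most abundant protein of normal urine. Its signal was 785, 2.68, 921, 21.6 and 5.37 in the 3 mg/kg rats of day 8, against 2676, 3177, 2502, 2393 and 2606 in day 8 controls. It was 2792, 3201, 2855, 2929 and 2960.1 in the 3 mg/kg rats of day 5, against 3104, 3047, 3226, 2999.6 and 3201 in day 5 controls. All 5 treated rats of day 8 were below every rat of the other 3 groups, with rats 2, 4 and 5 far below rats 1 and 3, and the treated rats of day 5 overlapped their controls. The change was -4.63 ± 0.74 (SE; limma adjusted p = 2.66e-05). The SD between treated rats was 2.84 on day 8 and 0.07 on day 5, and this pooled SE does not follow that spread. When only the 4 groups were fitted, the limma adjusted p was 0.0148. Fewer cells of a segment and less of a transcript per cell cannot be told apart in a homogenate, here or for any gene below.

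Egf encodes epidermal growth factor, a mitogen for tubule cells. It had 669, 45.0, 1314, 145 and 78.1 in the 3 mg/kg rats of day 8, against 2624, 2828, 2955, 2652 and 2773 in day 8 controls. It had 1704, 2348, 1679, 2385 and 2313 in the 3 mg/kg rats of day 5, against 2730.0, 2898, 3205, 2747 and 2945 in day 5 controls. Treated rats were below all controls on both days, and the rats of day 8 were below all those of day 5. The change was -3.03 ± 0.51 (limma adjusted p = 6.07e-05, and 0.0170 when only the 4 groups were fitted). Slc12a1, the furosemide-sensitive salt transporter of this segment, had 1189, 25.8, 1159.6, 236 and 76.2 in the 3 mg/kg rats of day 8, against 2167, 2056, 1482, 1406 and 1435 in day 8 controls. Its signals were 1624, 1326, 1431, 1522 and 1451 in the 3 mg/kg rats of day 5, against 1942, 1799.5, 2047, 1986 and 2259 in day 5 controls. All treated rats of day 8 were below every other rat, but once the mean of the same-day controls was subtracted, rats 1 and 3 overlapped the treated rats of day 5. The change of -2.22 ± 0.58 passed (limma adjusted p = 0.00593), but not when only the 4 groups were fitted (limma adjusted p = 0.108). Ppp1r1a, an inhibitor of protein phosphatase 1, fell by 3.13 (limma adjusted p = 2.35e-05), and the calcium-sensing receptor Casr fell by 1.93 (limma adjusted p = 0.000213). Averaged over the 16 genes, the difference from same-day controls was -0.62, -2.57, -0.62, -1.87 and -2.26 in the treated rats of day 8 and -0.17, -0.00, -0.29, -0.08 and -0.06 in those of day 5.

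**Figure D2:**
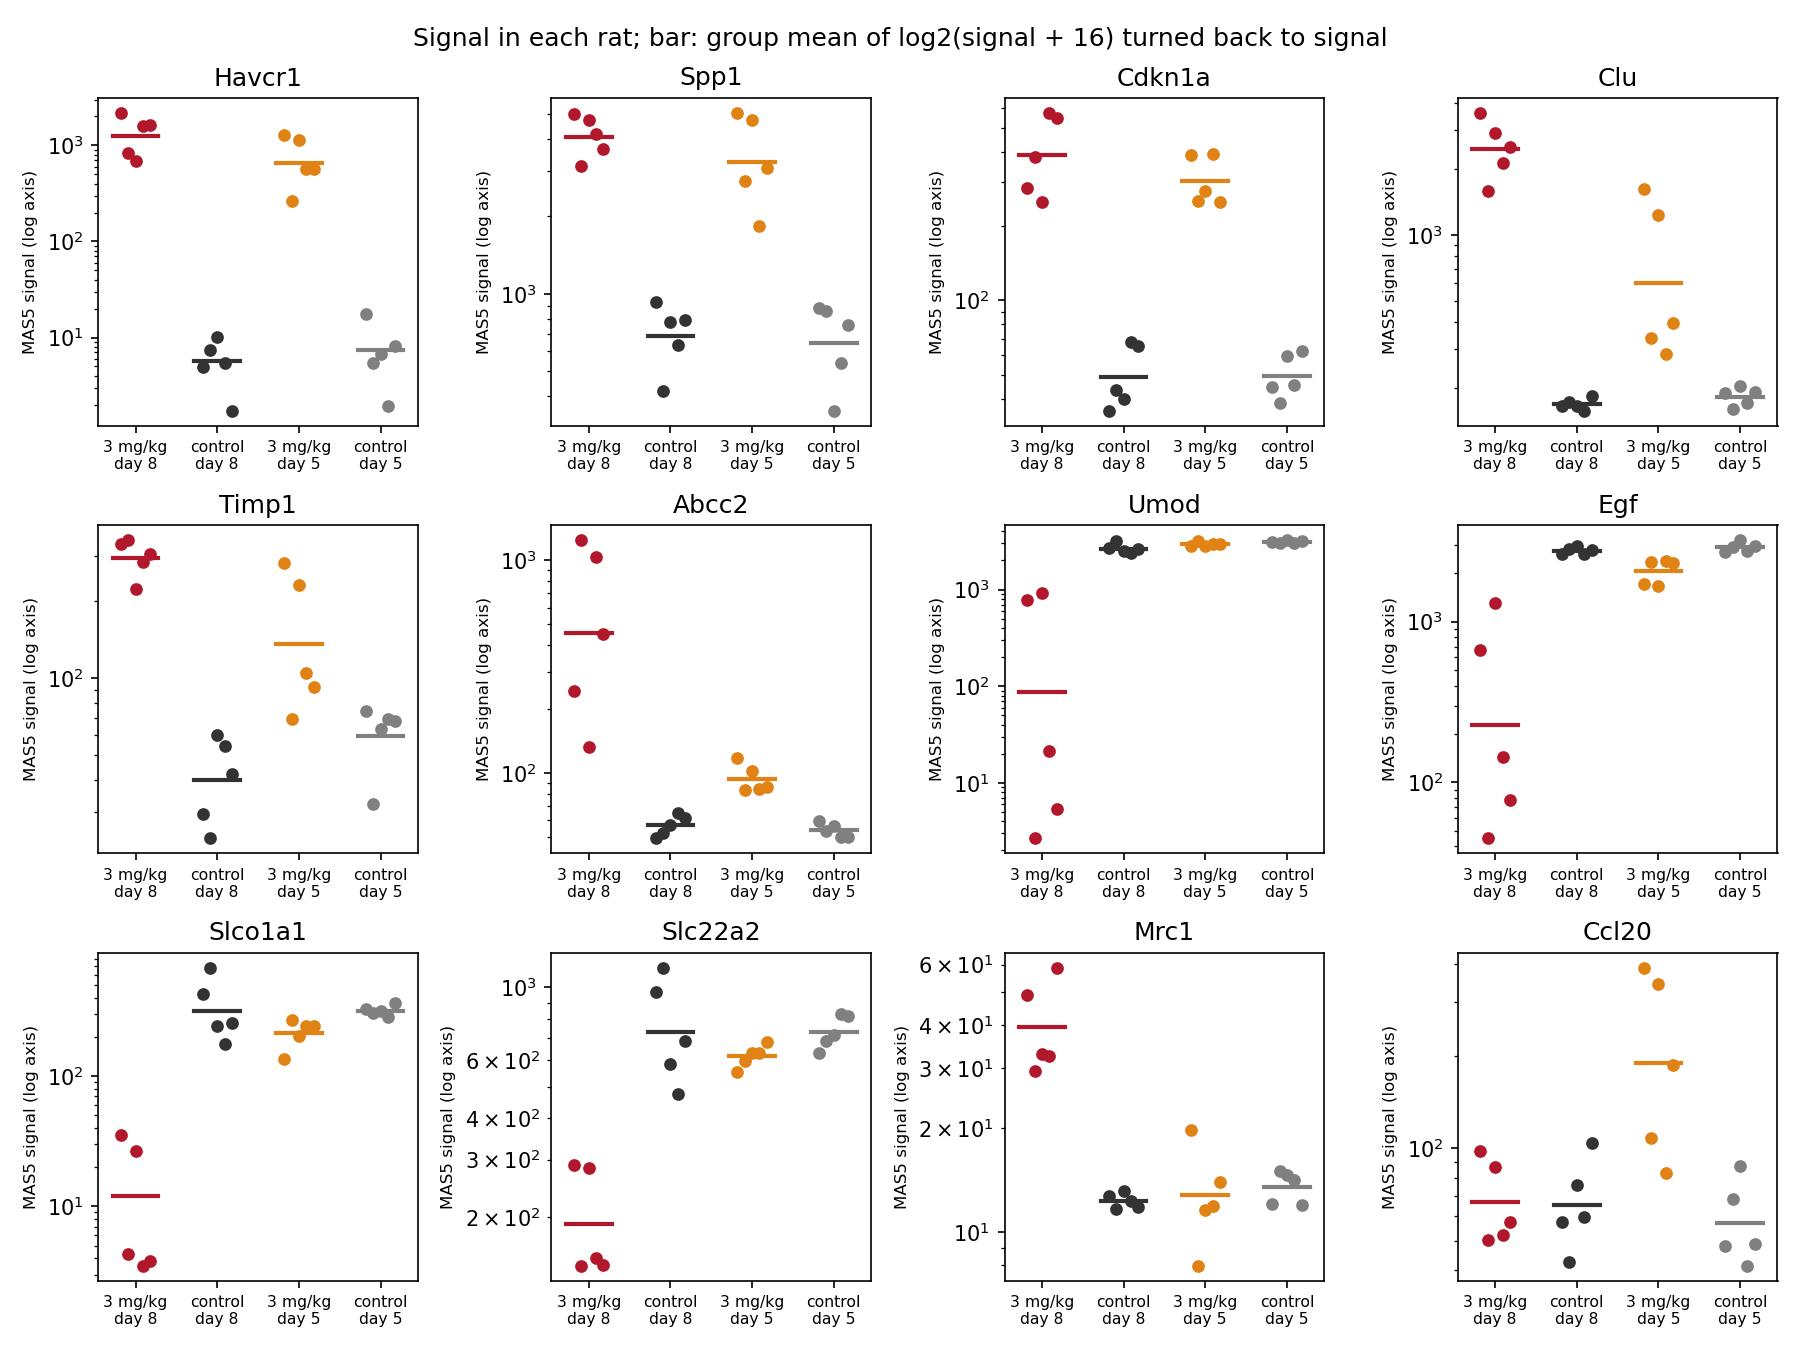
MAS5 signal (log axis) of each rat for 12 genes, with the groups from left to right 3 mg/kg and control on day 8, then 3 mg/kg and control on day 5; the bar is the group mean of log2(signal + 16) turned back to signal. Treated rats of day 8 stand below all others for Umod, Egf, Slco1a1 and Slc22a2, and above all others for Abcc2 and Mrc1, while Havcr1, Spp1 and Cdkn1a are high in treated rats of both days.

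Segments further along the nephron moved the same way for some genes. Of 9 distal convoluted and connecting tubule genes, 5 fell and 3 rose (median change -0.96), and 5 fell and 1 rose when only the 4 groups were fitted. Slc12a3, the thiazide-sensitive salt transporter, had 348, 43.6, 500.0, 333 and 137 in the 3 mg/kg rats of day 8, against 903, 889, 807, 808 and 825 in day 8 controls. It had 778, 956, 856, 1048 and 903 in the 3 mg/kg rats of day 5, against 845, 786, 1017, 846 and 768 in day 5 controls. The treated rats of day 8 were below every other rat and those of day 5 overlapped their controls, with a change of -2.02 ± 0.36 (limma adjusted p = 0.000113). Tissue kallikrein Klk1 fell by 1.67, the sodium-calcium exchanger Slc8a1 by 1.42 and the calcium-binding protein Calb1 by 1.01. The calcium channel Trpv5 rose, with signals of 33.7 to 93.9 in 3 mg/kg rats on day 8, against 14.5 to 23.2 in day 8 controls, and 24.9 to 43.7 in 3 mg/kg rats on day 5, against 30.9 to 37.5 in day 5 controls. Its controls were lower on day 8 than on day 5, and the change was 1.18 ± 0.20 (limma adjusted p = 7.05e-05). Second probe sets of Trpv5 and Slc8a1 changed by 0.05 and -0.08 and did not pass.

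Of 14 collecting duct genes, 6 fell and 1 rose (median change -0.32), and 3 fell when only the 4 groups were fitted. The steroid dehydrogenase Hsd17b1, counted on this list, fell by 1.44 (limma adjusted p = 0.000647), and the cells that its signal comes from were not tested. The steroid dehydrogenase Hsd11b2 had a smaller change of -0.78. The vasopressin-regulated water channel Aqp2 fell by 1.00 (limma adjusted p = 0.0249), but did not pass when only the 4 groups were fitted (limma adjusted p = 0.154) or without 3 mg/kg day 8 rat 2 or 5. The water channel Aqp4 was the gene that rose, by 1.14 (limma adjusted p = 0.00533); its second probe set changed by 0.33 and did not pass. Aqp4 and the urea transporter Slc14a2 are the inner medulla markers. Slc14a2 rose by 0.45 (limma adjusted p = 0.036), but not without control day 8 rats 1 and 2 (limma adjusted p = 0.0824), in 8 of 20 fits that left out 1 rat, or by its second probe set (0.13). The summed signal of Aqp4 and Slc14a2 was 138 to 233 in 3 mg/kg rats on day 8, against 69.9 to 118 in day 8 controls, and 40.8 to 101 in 3 mg/kg rats on day 5, against 54.4 to 91.0 in day 5 controls. The part of inner medulla in the pieces of tissue was not tested.

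Proximal tubule transporters divided. Of 40 measured, 12 fell, 4 rose and the others did not pass (median change -0.19), and 8 fell and 3 rose when only the 4 groups were fitted. Slco1a1, which takes up organic anions, had 35.4, 4.32, 26.7, 3.51 and 3.81 in the 3 mg/kg rats of day 8, against 427, 679.7, 243, 176 and 254 in day 8 controls. It had 135, 269.7, 203, 245 and 242 in the 3 mg/kg rats of day 5, against 329, 307, 317, 285 and 362 in day 5 controls. The treated rats of day 8 were below every other rat, and the change was -3.03 ± 0.38 (limma adjusted p = 2.42e-06). Its relatives Slco1a6 and Slco1a3 fell by 3.18 (limma adjusted p = 0.000279) and 2.38 (limma adjusted p = 0.00128), and the probes of these close relatives may share signal. Without control day 8 rats 1 and 2 the changes were smaller, at -2.54 for Slco1a1, -2.47 for Slco1a6 and -1.84 for Slco1a3. Slc22a2, the organic cation transporter OCT2 that carries cisplatin into tubule cells, had 288, 143, 283, 151 and 144 in the 3 mg/kg rats of day 8, against 967, 1147, 585, 473 and 688 in day 8 controls. It had 555, 599, 633, 633 and 684 in the 3 mg/kg rats of day 5, against 632, 689.6, 718, 833 and 820.2 in day 5 controls. Again the treated rats of day 8 were below every other rat, and the change was -1.61 ± 0.28 (limma adjusted p = 7.05e-05). The amino acid transporter Slc7a13 fell by 2.25 (limma adjusted p = 0.00197).

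Among 15 endocytic receptors and brush border enzymes, 5 fell and none rose (median change -0.08). The peptidases meprin beta (Mep1b), neprilysin (Mme) and aminopeptidase N (Anpep) fell by 2.44, 2.04 and 1.20 (limma adjusted p = 0.00014, 0.000119 and 8.68e-06). Without control day 8 rats 1 and 2 their changes were -1.93, -1.91 and -1.11. The peptidase Ace went the other way, with a change of 0.38 that did not pass. Of 32 metabolic enzymes of the proximal tubule, 9 fell and 5 rose (median change -0.06), and 5 fell and 3 rose when only the 4 groups were fitted. Hnmt, which methylates histamine, had 6.87 to 105 in 3 mg/kg rats on day 8, against 249 to 845 in day 8 controls. It had 185 to 385 in 3 mg/kg rats on day 5, against 266 to 603 in day 5 controls. Hnmt fell by 2.66 (limma adjusted p = 0.00111), and without control day 8 rats 1 and 2 its change was -2.04. Cyp27b1, which activates vitamin D, had 17.0, 106, 20.5, 44.0 and 135 in the 3 mg/kg rats of day 8, against 9.56, 6.01, 8.63, 11.3 and 12.2 in day 8 controls. It had 8.63, 6.48, 11.1, 11.9 and 11.9 in the 3 mg/kg rats of day 5, against 14.6, 28.7, 18.7, 34.1 and 12.6 in day 5 controls. Treated rats were above controls on day 8 and below them on day 5, so the effect was 1.39 on day 8 and -0.51 on day 5, with a change of 1.90 ± 0.33 (limma adjusted p = 7.98e-05).

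Abcc2, an export pump for conjugated drugs on the brush border, was one of the 4 transporters that rose. It had 244, 1241, 133, 1035 and 450.2 in the 3 mg/kg rats of day 8, against 49.6, 52.6, 56.8, 64.8 and 61.5 in day 8 controls. It had 118, 83.7, 103, 84.3 and 86.5 in the 3 mg/kg rats of day 5, against 59.9, 53.6, 56.3, 50.2 and 49.9 in day 5 controls. Treated rats were above controls on both days, those of day 8 were above those of day 5, and rats 2 and 4 of day 8 were the highest. The change was 2.04 ± 0.36 (limma adjusted p = 0.000102, and 0.0197 when only the 4 groups were fitted).

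Of 12 kidney injury markers, 5 rose and 1 fell (median change 0.56; the median effect was 1.45 on day 8 and 0.48 on day 5). Clusterin (Clu), a secreted chaperone, had 3608, 1581, 2931, 2134 and 2518 in the 3 mg/kg rats of day 8, against 166, 173, 165, 157 and 184 in day 8 controls. It had 1626, 338, 1233, 286 and 397 in the 3 mg/kg rats of day 5, against 189, 161, 203, 169.6 and 191 in day 5 controls. Treated rats were above controls on both days, rats 1 and 3 of day 5 were well above the other 3 of that day, and rat 1 of day 5 exceeded rat 2 of day 8. Against the mean of same-day controls the days did not overlap, and the change was 2.10 ± 0.53 (limma adjusted p = 0.00487). Timp1, an inhibitor of matrix metalloproteases, had 336, 346, 224, 284 and 307 in the 3 mg/kg rats of day 8, against 29.5, 23.7, 59.7, 54.2 and 42.2 in day 8 controls. It had 283, 69.3, 231, 105 and 92.5 in the 3 mg/kg rats of day 5, against 74.7, 32.1, 63.3, 69.4 and 68.0 in day 5 controls. Treated rats of day 5 overlapped their controls and treated rats of day 8 did not. In signal, rats 1 and 3 of day 5 overlapped the rats of day 8, though not against the mean of same-day controls, and the change was 1.46 ± 0.42 (limma adjusted p = 0.0117); without control day 8 rats 1 and 2 the call was lost, at 1.19 (adjusted p = 0.0641) with limma. Lcn2, which binds bacterial iron carriers, had 595, 219, 257, 425 and 442 in 3 mg/kg rats on day 8 and 303, 57.6, 244, 61.4 and 74.9 in those on day 5, with no control above 33.6. The treated rats of the 2 days overlapped, and the change was 1.60 ± 0.48 (limma adjusted p = 0.0173). Ceruloplasmin (Cp), a copper-carrying ferroxidase, rose by 1.05 (limma adjusted p = 0.000388).

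The injury marker that fell was Tff3, a trefoil peptide of mucosal surfaces, with 30.5 to 394 in 3 mg/kg rats on day 8, against 915 to 2751 in day 8 controls, and 915 to 1554 in 3 mg/kg rats on day 5, against 971 to 1773 in day 5 controls. Only the treated rats of day 8 stood apart, below all others, with a change of -3.36 ± 0.58 (limma adjusted p = 7.87e-05). Havcr1, which encodes kidney injury molecule 1, had 2177, 829.5, 679.7, 1581 and 1639.5 in the 3 mg/kg rats of day 8, against 4.95, 7.33, 10.2, 5.47 and 1.73 in day 8 controls. It had 1275, 265, 1128, 570.1 and 569.7 in the 3 mg/kg rats of day 5, against 17.7, 5.41, 6.71, 1.94 and 8.24 in day 5 controls. It was high in every treated rat of both days, which overlapped, and its change of 1.03 ± 0.88 did not pass (limma adjusted p = 0.45; 95% interval -0.74 to 2.79). Osteopontin (Spp1), a secreted phosphoprotein, had effects of 2.54 on day 8 and 2.31 on day 5, and its change of 0.22 ± 0.41 did not pass (95% interval -0.59 to 1.04).

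Genes of dedifferentiated tubule cells partly rose. Of 21, 6 rose and 1 fell (median change 0.37). Krt18, a keratin of simple epithelia, had 289.5, 805, 221, 348 and 437 in the 3 mg/kg rats of day 8, against 102, 92.7, 112, 98.3 and 105 in day 8 controls. It had 153, 129, 111, 119 and 121 in the 3 mg/kg rats of day 5, against 113, 121, 107, 104 and 94.1 in day 5 controls. Treated rats of day 8 were above every other rat, and the change was 1.54 ± 0.23 (limma adjusted p = 1.15e-05). Its partner Krt8 rose by 0.77 and the calcium-binding protein S100a6 by 1.50 (limma adjusted p = 0.00241 and 0.000252). The receptor Tnfrsf12a rose by 1.03 (limma adjusted p = 0.0338), but not without control day 8 rats 1 and 2 or when only the 4 groups were fitted (limma adjusted p = 0.0727 and 0.0657), and it lost the call in 7 of 20 fits that left out 1 rat. The gene that fell was the keratin Krt7, named after its values were seen.

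Of 6 fibrinogen and acute phase genes, 3 rose and none fell (median change 0.84). Fgb, the beta chain of the clotting protein fibrinogen, had 134, 231, 64.9, 235 and 176 in the 3 mg/kg rats of day 8, against 10.6, 6.96, 10.2, 8.33 and 8.83 in day 8 controls. It had 80.5, 24.6, 84.5, 28.4 and 30.4 in the 3 mg/kg rats of day 5, against 16.3, 17.3, 14.0, 17.7 and 14.5 in day 5 controls. Treated rats were above controls on both days, with an overlap between the days through rats 1 and 3 of day 5 and rat 3 of day 8 before the controls were subtracted, and the change was 1.85 ± 0.36 (limma adjusted p = 0.000361). The gamma chain Fgg rose by 1.37 and the protease inhibitor A2m by 0.69 (limma adjusted p = 0.000434 and 0.0268). A2m did not pass when only the 4 groups were fitted (limma adjusted p = 0.0626) or in 5 of 20 fits that left out 1 rat. The alpha chain Fga had effects of 2.81 on day 8 and 1.84 on day 5, and its change of 0.98 ± 0.40 did not pass (limma adjusted p = 0.0818). The liver markers Alb and Apoa2 summed to 10.2 or less on every array.

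Promoter sequences are shown for Fgb and Gpnmb, the 2 of the largest rises that hold the AP-1 motif TGANTCA, and for Umod, the largest fall. RefSeq promoters (GRCr8, 250 bases before to 50 after the start) matched 13 of the 15 largest rises and 12 of the 15 largest falls whose treated rats did not overlap between the days. Searched on both strands, TGANTCA was in 2 of the 13 rises, in 0 of the 12 falls and in 7.33% of all 33469 promoters. The TATA letters TATAAA were in 5 of the 13 rises, 2 of the 12 falls and 14.2% of all promoters, and, of the other motifs searched, the p53 decamer was in 1 rise, 0 falls and 7.37% of all, and the HNF1 motif in 0, 0 and 0.0448%. These matches describe letters and not binding. Capitals mark TGANTCA in Fgb (chr2:170700826-170701125, minus strand) and Gpnmb (chr4:79340878-79341177, plus strand), and TATAAA in Umod (chr1:183260967-183261266, minus strand).
Fgb: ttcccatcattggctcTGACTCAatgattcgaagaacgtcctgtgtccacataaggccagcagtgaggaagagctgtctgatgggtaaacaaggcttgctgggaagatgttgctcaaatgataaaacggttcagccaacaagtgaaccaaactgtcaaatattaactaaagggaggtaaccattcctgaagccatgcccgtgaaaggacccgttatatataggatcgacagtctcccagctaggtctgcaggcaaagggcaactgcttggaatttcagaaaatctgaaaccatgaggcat
Gpnmb: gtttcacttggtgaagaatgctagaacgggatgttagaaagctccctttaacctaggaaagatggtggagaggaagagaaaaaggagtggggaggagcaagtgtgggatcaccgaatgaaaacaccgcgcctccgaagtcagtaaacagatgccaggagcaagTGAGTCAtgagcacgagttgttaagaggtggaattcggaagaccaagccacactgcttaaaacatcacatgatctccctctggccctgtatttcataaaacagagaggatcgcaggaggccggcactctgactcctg
Umod: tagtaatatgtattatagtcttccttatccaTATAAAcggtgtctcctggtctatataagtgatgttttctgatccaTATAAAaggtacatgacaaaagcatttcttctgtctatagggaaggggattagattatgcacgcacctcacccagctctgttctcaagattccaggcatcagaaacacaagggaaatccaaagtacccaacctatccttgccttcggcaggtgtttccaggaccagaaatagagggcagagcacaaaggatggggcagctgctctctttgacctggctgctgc

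Of 17 macrophage genes, 6 rose and none fell (median change 0.34). Gpnmb, a glycoprotein of lysosome-rich macrophages and of some injured epithelia, had 185, 507, 77.2, 296 and 451 in the 3 mg/kg rats of day 8, against 17.9, 22.7, 19.5, 18.3 and 20.3 in day 8 controls. It had 43.5, 28.4, 37.4, 36.5 and 23.8 in the 3 mg/kg rats of day 5, against 6.06, 14.3, 16.7, 2.65 and 19.0 in day 5 controls. Treated rats were above controls on both days and those of day 8 above those of day 5, with a change of 2.04 ± 0.42 (limma adjusted p = 0.000596). Mrc1, the mannose receptor of tissue macrophages, had 48.8, 29.5, 32.9, 32.4 and 58.7 in the 3 mg/kg rats of day 8, against 12.7, 11.6, 13.1, 12.3 and 11.8 in day 8 controls. It had 19.8, 7.98, 11.6, 11.9 and 14.0 in the 3 mg/kg rats of day 5, against 12.0, 15, 14.6, 14.1 and 12.0 in day 5 controls. Treated rats of day 8 were above every other rat and the groups of day 5 overlapped, with a change of 1.00 ± 0.19 (limma adjusted p = 0.000242). The summed signal of 4 macrophage markers was 224 to 356 in 3 mg/kg rats on day 8, against 168 to 214 in day 8 controls, and 161 to 236 in 3 mg/kg rats on day 5, against 152 to 213 in day 5 controls. Of these 4, Mrc1 passed. The part of macrophage number in the other rises was not tested.

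Of 30 matrix and myofibroblast genes, 9 rose and 1 fell (median change 0.27); the one that fell was the protease inhibitor Timp3, named after its values were seen. Lox, which crosslinks collagen, had 90.6, 151, 87.2, 116 and 122 in the 3 mg/kg rats of day 8, against 46.1, 25.3, 20.7, 20.7 and 31.4 in day 8 controls. It had 37.6, 36.5, 39.8, 28.4 and 30.5 in the 3 mg/kg rats of day 5, against 26.3, 21.4, 19.1, 20.1 and 29.5 in day 5 controls. Treated rats of day 8 were above every other rat, with a change of 1.17 ± 0.23 (limma adjusted p = 0.000401); its second probe set changed by 0.59 and did not pass. Fibronectin (Fn1), decorin (Dcn) and tenascin C (Tnc) rose by 0.77, 0.91 and 0.91. Smooth muscle actin (Acta2) rose by 0.92 (limma adjusted p = 3.39e-05), and its controls differed by -0.60 between day 8 and day 5.

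Counts of other immune lists also stand beside 8.65% higher and 7.69% lower over all genes. S100a9, a calcium-binding protein of neutrophils, rose by 1.22 (limma adjusted p = 0.0191), but not when only the 4 groups were fitted (limma adjusted p = 0.129) or without 3 mg/kg day 8 rat 2. S100a8 and S100a9 summed to 20.9 to 285 in 3 mg/kg rats on day 8, against 12.3 to 44.1 in day 8 controls. Of 8 MHC class II genes 2 rose, all 8 changes were positive, and the controls shifted from day 5 to day 8 by a median of -0.27. The mean over the 8 differed from controls by 0.72, -0.37, 0.87, -0.02 and -0.02 in the 5 treated rats of day 8, with rats 1 and 3 the highest. No gene passed among 21 interferon and 8 lymphocyte genes. Complement had 1 higher and 1 lower of 7, endothelium 1 lower of 15, and podocytes 1 higher of 9; without control day 8 rats 1 and 2 no endothelial or podocyte gene passed and 1 MHC class II gene rose.

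**Figure D3:**
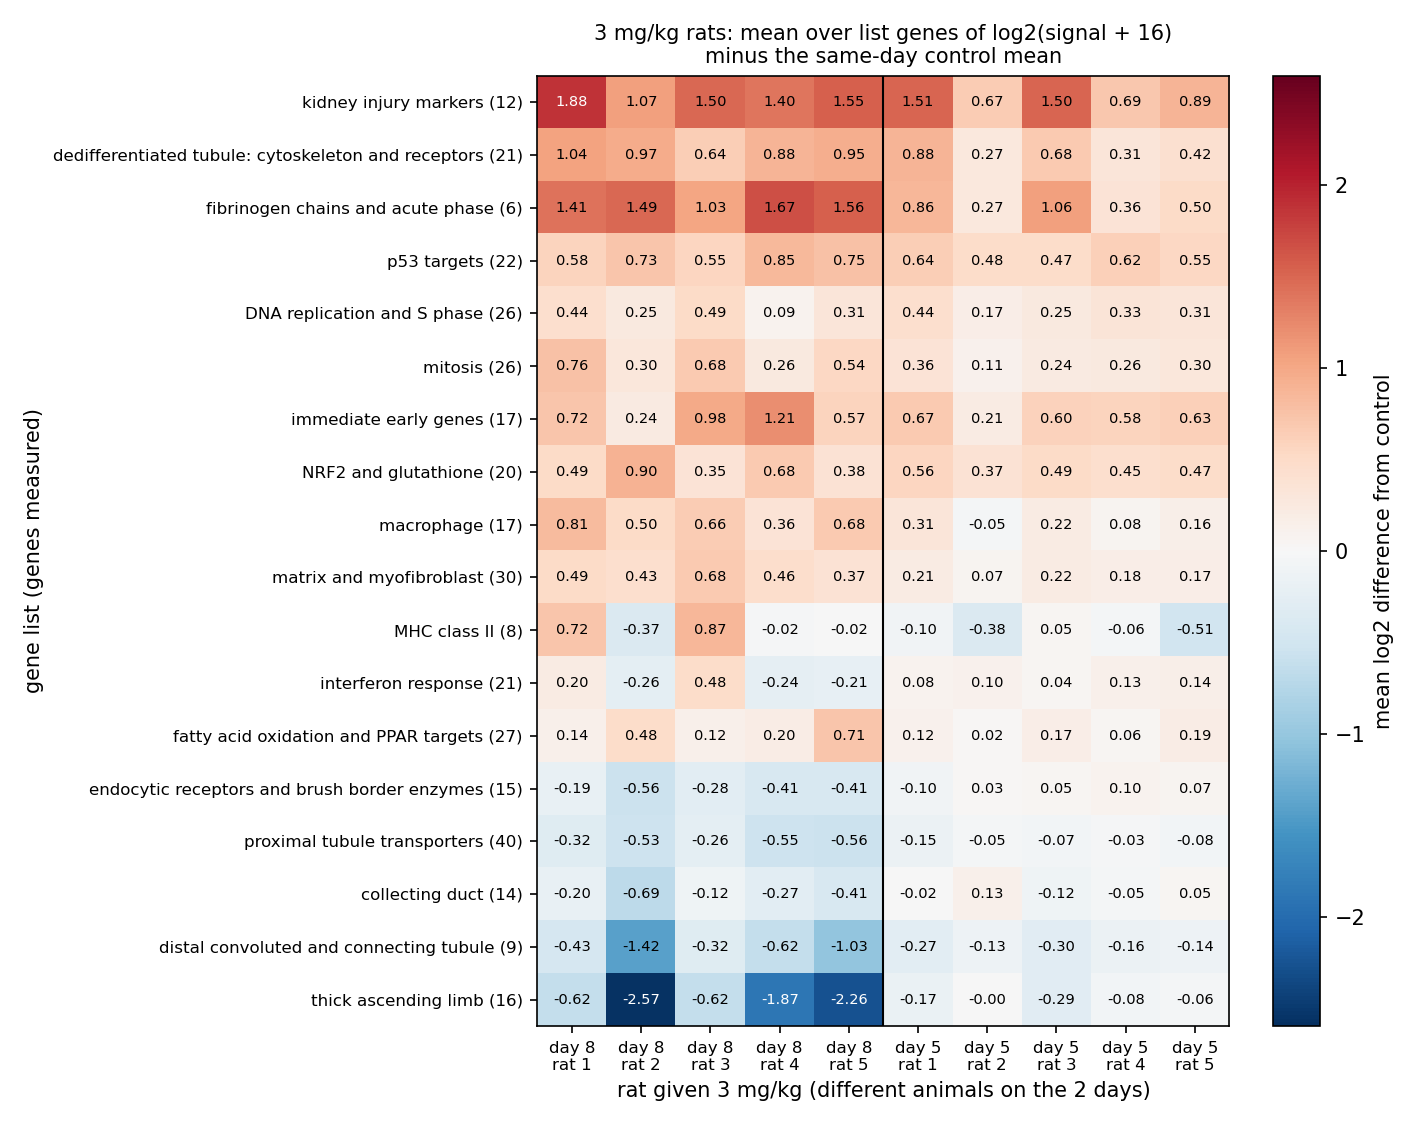
Each cell is the mean over the genes of a list of log2(signal + 16) minus the same-day control mean, for the 5 treated rats of day 8 on the left and the 5 of day 5 on the right; brackets give the genes measured. Thick ascending limb genes range from -2.57 to -0.62 on day 8 and from -0.29 to -0.00 on day 5, and p53 targets lie between 0.47 and 0.85 on both days.

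Most p53 targets did not pass. Of 22, 4 rose and 1 fell (median change 0.19; median effect 0.42 on day 8 and 0.43 on day 5), and without control day 8 rats 1 and 2 none rose and 1 fell. When only the 4 groups were fitted, 1 rose and 1 fell. Cdkn1a, the cell cycle inhibitor p21, had 285, 381, 251, 574 and 547 in the 3 mg/kg rats of day 8, against 35.8, 43.4, 39.7, 67.8 and 65.6 in day 8 controls. It had 387, 251, 276, 392 and 249.5 in the 3 mg/kg rats of day 5, against 44.5, 38.5, 59.7, 45.5 and 62.5 in day 5 controls. Every treated rat was above every control and the days overlapped, with a change of 0.33 ± 0.27 (95% interval -0.21 to 0.88; limma adjusted p = 0.421). Mdm2, which degrades p53, had effects of 0.82 on day 8 and 0.82 on day 5 (interval of the change -0.23 to 0.23). Cyclin G1 (Ccng1) had 1.45 on day 8 and 1.73 on day 5 (interval -0.55 to -0.01; limma adjusted p = 0.144). Epoxide hydrolase Ephx1 was the largest rise on this list, at 0.77, and the carbonyl reductase Dcxr fell by 0.65 (limma adjusted p = 0.0141 and 0.000102). Ephx1 did not pass without control day 8 rats 1 and 2 or when only the 4 groups were fitted (limma adjusted p = 0.0526 and 0.108).

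Of 26 replication genes none passed for the change (median 0.03), and of 26 mitosis genes 3 rose and 1 fell (median change 0.34, against 0.04 over all genes). Part of that median lies in the controls. From day 5 to day 8 the mitosis genes shifted in controls by a median of -0.19, against -0.02 over all genes. Of the 26 mitosis genes, 22 were higher and 1 lower for the day 8 effect (21.4% and 15.9% of all genes), and 2 higher and 0 lower for the day 5 effect (5.31% and 3.49%). Cyclin B1 (Ccnb1), which drives entry into mitosis, rose by 0.67 and the kinase Melk fell by 0.84 (limma adjusted p = 0.0141 and 0.0295). Melk did not pass without control day 8 rats 1 and 2 or when only the 4 groups were fitted (limma adjusted p = 0.208 and 0.064), where the list had 2 higher and 0 lower, and it lost the call in 5 of 20 fits that left out 1 rat. The proliferation marker Mki67 did not pass (interval -0.31 to 0.70), nor did Top2a, a topoisomerase of dividing cells (interval -0.12 to 0.93).

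Lipid, redox and stress genes were mixed, beside 8.65% higher and 7.69% lower over all genes. Of 27 fatty acid oxidation and PPAR target genes, 8 rose and 1 fell (median change 0.20), but 2 rose without control day 8 rats 1 and 2, and 3 when only the 4 groups were fitted. Ehhadh, a peroxisomal oxidation enzyme, had 785, 2008, 651, 1599 and 2136 in the 3 mg/kg rats of day 8, against 544, 519, 511, 632 and 535 in day 8 controls. It had 532, 569, 724, 609 and 702 in the 3 mg/kg rats of day 5, against 710.1, 609, 625.4, 603 and 620.4 in day 5 controls. Rats 2, 4 and 5 of day 8 were the highest, and the change was 1.23 ± 0.25 (limma adjusted p = 0.000566). Of 20 NRF2 and glutathione genes, 3 rose and 2 fell, and 1 rose and 2 fell when only the 4 groups were fitted. The glutathione transferase Gstm1 and the peroxiredoxin repair enzyme Srxn1 rose by 1.47 and 1.23, and Gclc, the rate-limiting enzyme of glutathione synthesis, fell by 1.40 (limma adjusted p = 0.000404, 0.00297 and 0.000629). Srxn1 did not pass when only the 4 groups were fitted (limma adjusted p = 0.0729). Of 23 ER stress and ATF4 genes 2 rose and 6 fell, with 1 rising and 3 falling when only the 4 groups were fitted; the chaperone partner Sdf2l1 and Herpud1, which serves protein degradation at the ER, fell by 0.85 and 0.84 (limma adjusted p = 0.000329 and 0.0127).

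Counts of the remaining lists stand beside 8.65% higher and 7.69% lower over all genes, and some lie above these shares. Respiratory chain subunits had 4 lower of 29, cholesterol synthesis 2 lower of 15, proteasome subunits 1 higher and 1 lower of 24, and the circadian clock 1 lower of 16. Ribosome biogenesis had 3 higher and 1 lower of 23; the lower one, the nucleolar GTPase Gtpbp4, fell by 2.07 (limma adjusted p = 0.00664), with 66.6 to 88.1 in 3 mg/kg rats on day 8, against 97.5 to 1034 in day 8 controls, and 148 to 331 in 3 mg/kg rats on day 5, against 102 to 354 in day 5 controls, but not without control day 8 rats 1 and 2, at -1.40 (adjusted p = 0.072) with limma. Tubule transcription factors had 4 higher of 25, among them Id1 and Id3, inhibitors of differentiation factors, at 1.19 and 1.44 (limma adjusted p = 0.003 and 0.000596). Myc, counted also as the only one of 17 immediate early genes to rise, rose by 0.96 (limma adjusted p = 0.0261), but not without control day 8 rats 1 and 2, at 0.67 (adjusted p = 0.16) with limma, when only the 4 groups were fitted (adjusted p = 0.0903), or in 6 of 20 fits that left out 1 rat. Without these rats 2 of the transcription factors rose. Iron handling had 2 higher of 9 and lysosomal proteases 3 higher of 16. Chemokine and inflammation genes had 3 higher and 1 lower of 22, and 1 of each when only the 4 groups were fitted.

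Several of the largest single changes lie outside these lists. Vnn1, a pantetheinase, rose by 1.74, Creb3l3, a liver and gut transcription factor of lipid metabolism, by 1.49, the cholesterol exporter Abca1 by 1.48, and the receptor Ephb6 by 1.40 (limma adjusted p = 0.000136, 0.00361, 0.00071 and 0.000364). Creb3l3 did not pass when only the 4 groups were fitted (limma adjusted p = 0.052). Matn1, a cartilage matrix protein, fell by 2.50, with effects of -1.79 on day 8 and 0.71 on day 5, and the lysoplasmalogenase Tmem86a fell by 2.15 (limma adjusted p = 0.0167 and 3.42e-05), though a second probe set of Tmem86a, at -0.57, did not pass. Mpped1 fell by 2.05 (limma adjusted p = 6.15e-05), but a second probe set of the gene did not pass and pointed the other way.

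Some effects of day 5 receded or changed sign by day 8. Ccl20, a chemokine for lymphocytes and dendritic cells, had 97.9, 50.2, 86.8, 52.1 and 57.5 in the 3 mg/kg rats of day 8, against 57.3, 42.4, 76.0, 59.6 and 104 in day 8 controls. It had 388, 108, 343, 83.1 and 187 in the 3 mg/kg rats of day 5, against 47.9, 68.4, 87.6, 41.4 and 48.9 in day 5 controls. On day 8 the groups overlapped, and on day 5 treated rats 1, 2, 3 and 5 were above all controls. The change was -1.47 ± 0.43 (limma adjusted p = 0.0148). Slc5a3, which imports the osmolyte inositol, had 255, 76.6, 311, 224 and 132 in the 3 mg/kg rats of day 8, against 333, 328, 239.9, 234 and 256 in day 8 controls. It had 653, 333, 506, 281 and 403 in the 3 mg/kg rats of day 5, against 211, 246, 219, 234 and 228 in day 5 controls. It was above all controls in every treated rat of day 5 and overlapped or lay below controls on day 8, with a change of -1.40 ± 0.28 (limma adjusted p = 0.00039). The bile acid transporter Slc10a2 had effects of -0.43 on day 8 and 1.04 on day 5, and Cib2, a calcium- and integrin-binding protein, -0.73 on day 8 and 0.40 on day 5. In the other direction, the ubiquitin ligase scaffold Cul4a had 0.60 on day 8 and -0.53 on day 5. The secreted pentraxin Nptx1 had 0.57 on day 8 and -0.60 on day 5, but the larger shift was in its controls. Their mean signal was 32.3 on day 5 and 13.2 on day 8, against 15.99 and 28.3 in 3 mg/kg rats. These Nptx1 signals lie near the offset of 16.

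The controls differed between the days as well. Day 8 against day 5 controls passed for 558 genes (4.78%), 209 higher (1.79%) and 349 lower (2.99%), and 3 mg/kg on day 8 against 3 mg/kg on day 5 passed for 3451 (29.5%). Of the 1909 genes of the change, 383 had a control shift larger than the treated shift, as had 6 of the 169 changed 2-fold or more. Bhmt, an enzyme of methionine synthesis, rose by 1.48 (limma adjusted p = 0.00186), with a control shift of -0.77. The median signal of an array was 20.3 to 25.6 in 3 mg/kg rats on day 8 and 20.5 to 22.9 in day 8 controls, against 23.7 to 25.7 in 3 mg/kg rats on day 5 and 23.3 to 25.8 in day 5 controls; its part in these shifts was not tested.

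At 1 mg/kg, with 5 rats on day 8 and 3 on day 5, the change passed for 0 genes with limma, and 790 had an unadjusted p under 0.05. The difference between the doses in this change passed for 730 genes (6.25%), but for 4 when only its own groups were fitted. The difference was -4.29 ± 0.80 for Umod and 1.75 ± 0.39 for Abcc2 (limma adjusted p = 0.00112 and 0.0052). Rbp4, the plasma carrier of retinol, had 37.9, 2445, 6.84, 2511 and 1234 in the 3 mg/kg rats of day 8, against 110.3, 88.9, 34.4, 8.59 and 43.9 in day 8 controls. It had 9.33, 20.2, 28.9, 38.8 and 15.9 in the 3 mg/kg rats of day 5, against 16.8, 24.0, 59.97, 42.2 and 49.8 in day 5 controls. Treated rats 2, 4 and 5 of day 8 were far above every other rat, and the change was 3.13 ± 0.97 (limma adjusted p = 0.0212). It did not pass when only the 4 groups were fitted (limma adjusted p = 0.146) or without any 1 of treated rats 2, 4 and 5.

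Set beside days 3 and 26, the named genes followed different courses. The 3 mg/kg effect on Umod was 0.13, -0.08, -4.71 and 0.15 in the order of days 3, 5, 8 and 26. For Clu it was 0.16, 1.64, 3.74 and 0.48, and for Abcc2 0.83, 0.66, 2.70 and -0.10. For Cdkn1a it was 2.09, 2.29, 2.63 and 1.32. By day 26 the effects on Umod, Clu and Abcc2 did not pass (limma adjusted p = 0.929, 0.587 and 0.893), and that on Cdkn1a did (limma adjusted p = 0.000401), among 88 genes (0.753%) that passed on that day.

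**Figure D4:**
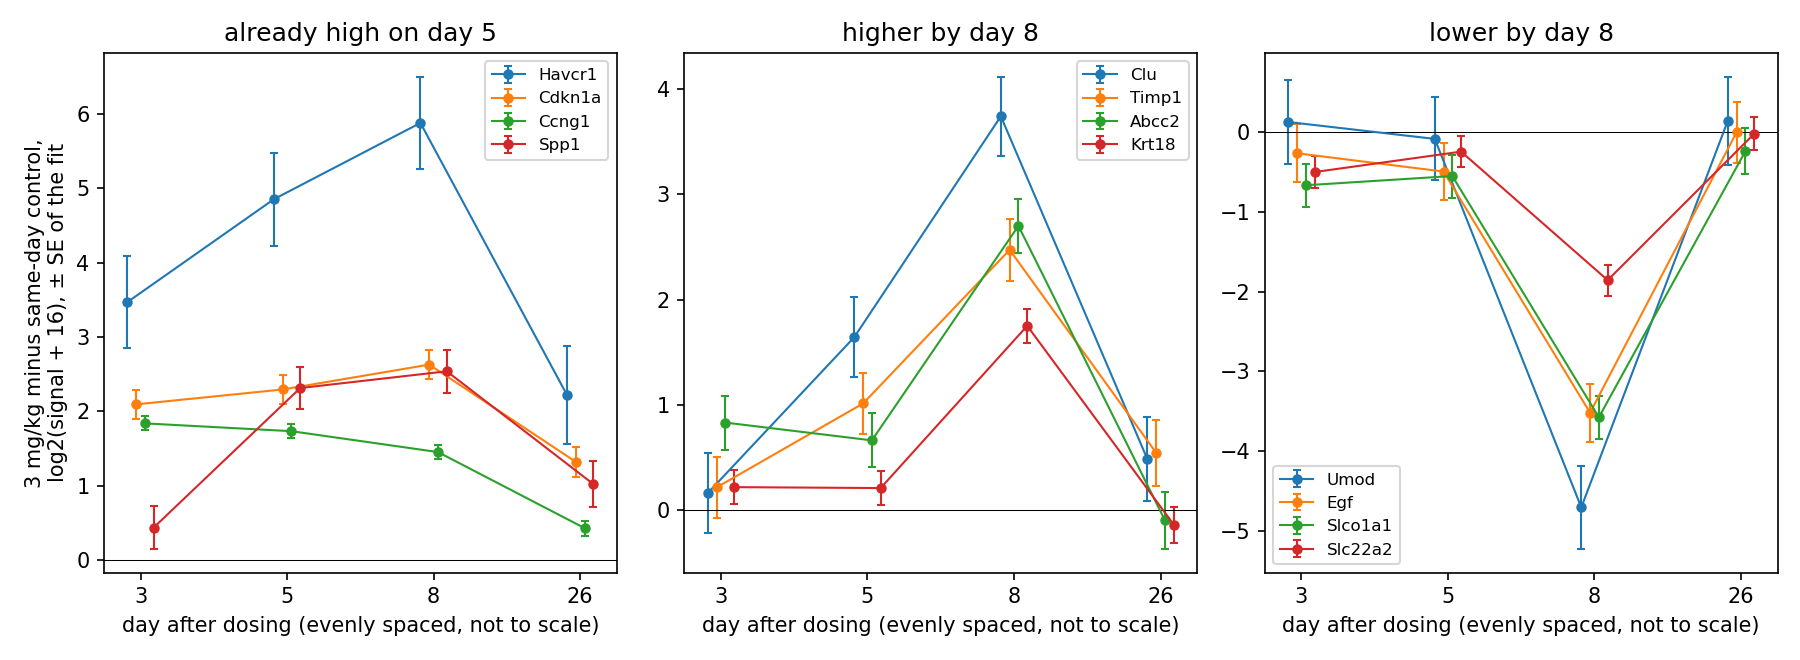
Effect of 3 mg/kg (3 mg/kg minus same-day control, difference in log2(signal + 16), ± SE of the fit) on days 3, 5, 8 and 26 for 12 genes in 3 panels. Umod reaches -4.71 and Clu 3.74 on day 8, while Cdkn1a is at 2.09 or more on days 3, 5 and 8.

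An exact permutation test compared the treated rats of day 8 with those of day 5 for 16 index genes, each value taken minus the mean of its same-day controls. With 252 ways to divide the 10 rats, the smallest two-sided p it can give is 0.00794. Clu, Timp1, Umod, Egf, Slc22a2, Slco1a1 and Abcc2 reached it (exact permutation p = 0.00794, adjusted over the 16 genes 0.0181), all 5 rats of day 8 lying on 1 side of all 5 of day 5. Lcn2 and Slc12a1 had an exact p of 0.0397 (adjusted 0.0705), Havcr1 of 0.0794 and Cdkn1a of 0.238. The other 5, which are Spp1, Mdm2, Ccng1, Top2a and Mki67, had an exact p between 0.111 and 1. These p-values measure the spread between treated rats that were labelled as biological replicates. The control means were subtracted as fixed values, so the spread between control rats is not in them.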

How the data were processed

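RNA from rat kidney was hybridised to Affymetrix Rat 230 2.0 arrays. The deposited values are MAS5 intensities on a linear scale, per the submitters' processing notes; no source used here gives their version or steps. Their 2% trimmed mean was 99.99 on every array. Of 31099 probe sets, 20826 carried 1 gene symbol in the platform annotation, 436 several and 9780 none; only those with 1 were used. Values were taken as log2(signal + 16). Probe sets above the 40th percentile of their array on at least 3 arrays were kept (21829), and the one with the highest mean stood for each gene (11683 genes).

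All 57 arrays entered limma 3.58.1 (R 4.3.3) with 12 group means, moderated with a trend. The change of the 3 mg/kg effect from day 5 to day 8 was a contrast, with Benjamini-Hochberg adjustment over all genes, a threshold of 0.05 and 95% intervals. Figures and exact permutation tests used Python 3.11.15. In data simulated for this contrast (11683 genes), 58% of 100 genes changed by 0.5 and 91% of 100 changed by 1 on the log2 scale were recovered, with 11 false calls. Each simulated gene had the same spread in all groups. In the data the median SD of 3 mg/kg rats on day 8 was 0.179, against 0.119 to 0.126 in the other compared groups. The simulation does not cover that larger spread. Alternatives covered the offset, filter, normalization, probe set choice, variance model, covariates and replicates. The number of arrays limits the precision. List counts are over members that were tested; members with no tested probe set are left out.

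Genes named were the 15 largest rises and falls with treated rats not overlapping, 8 receding, 8 high on both days without a called change, 16 index genes, up to 5 of each of 35 lists, and the 4 largest in each direction for the controls and for the dose difference; not all are printed. The members, lists and rule were chosen with earlier results of these data known.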

Additional observations from a re-analysis of the deposited data

Results flagged for a closer look

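In 72 checks of single values in groups of 5 rats, 3 values stood far from the other 4 of their group (gap over range above 0.71); chance gives about 1 in 20. Mdm2 in control rat 1 of day 8 was 172, against 219.6 to 235 in the others (gap over range 0.784). Mki67 in control rat 3 of day 8 was 68.3, against 36.7 to 40.7 (0.845). Timp1 in control rat 2 of day 5 was 32.1, against 63.3 to 74.7 (0.788).

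The change from day 5 to day 8 at 3 mg/kg minus that at 1 mg/kg passed limma's test for 6 index genes: it was -4.29 for Umod, -2.58 for Egf, -2.17 for Slc12a1, -1.18 for Slc22a2, -2.15 for Slco1a1 and 1.75 for Abcc2. Only 3 rats stand behind the 1 mg/kg day 5 group, and 4 genes in all passed when only the groups of that difference were fitted.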

How the results depend on the processing

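Over 205 followed genes, 3050 values under other settings kept direction and side of the threshold in 2928, lost the call in 86, gained it in 36 and reversed in 0. Leaving out 1 rat at a time gave 3889 of 4100, 130, 81 and 0. Counts of genes that passed moved by over 1.5 times as follows. Testing every kept probe set gave 2888 for the change, 6931 for the day 8 effect, 5235 for 3 mg/kg on day 8 against day 5 and 1347 for the controls. Fitting only the compared groups gave 1088, 2553 and 1478 for the first 3, and 4 for the dose difference. One variance per group gave 2155 for the treated comparison, 1046 for the controls and 433 for the dose difference. The controls gave 217 under quantile normalization, with 50.2% of calls higher against 37.5%, and 1302 under array weights; the higher share was 24.2% with every probe set, 27.3% with the mean of probe sets and 47.5% with a filter at the 60th percentile. The actin ratio as a covariate gave 388 for the dose difference. The causes were not tested.

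Leaving out 1 rat gave 1519 to 2425 genes for the change, 3759 to 4524 for the day 8 effect, 547 (without 3 mg/kg day 5 rat 1) to 1096 for the day 5 effect, 2919 to 3822 for the treated comparison, 222 to 693 for the controls and 398 to 1345 for the dose difference. The controls gave 284, 222 and 270 without day 5 control rats 2, 3 and 4, and 309, 307 and 238 without day 8 control rats 2, 3 and 4. The dose difference was 432 and 398 without 1 mg/kg day 5 rats 1 and 2, and 1345 without 3 mg/kg day 8 rat 3. Omitting control day 8 rats 1 and 2, a setting chosen after seeing the data, gave 1588 for the change, 3637 for the day 8 effect and 460 for the controls.

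With the replicate number as a block (replicate block), 1972 genes passed for the change, 4382 and 1081 for the effects of day 8 and day 5, 3498 for the treated comparison, 581 for the controls and 796 for the dose difference. After the group means were subtracted, arrays of the same number correlated at 0.0261 on average (-0.0990 to 0.211), against -0.0066 for other pairs. Of 20 arrays, 9 correlated best with an array of their own number. Whether the numbers pair the rats was not tested. An offset of 16 compresses changes of genes with low signal, such as Cyp27b1. In the exact test 7 index genes passed under each of 4 other settings; without subtraction of the control means Timp1 was lost (adjusted exact p = 0.0635) and Slc12a1 passed (0.0212), and over the 4 settings Timp1 ranged from 0.0181 to 0.0635.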

Other observations

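Outside the comparison of days, some genes were high on both days with no called change. The p53-induced kinase Plk2 had 3 mg/kg effects of 1.93 on day 8 and 1.73 on day 5, the aldo-keto reductase Akr1b8 1.72 on day 8 and 1.79 on day 5, the lipase inhibitor Angptl4 1.98 on day 8 and 1.95 on day 5 and the glucuronosyltransferase Ugt2b7 2.95 on day 8 and 2.49 on day 5. In controls alone, the largest shifts from day 5 to day 8 were a fall of Ccdc77 (-1.22) and a rise of Cracd (0.88), with limma adjusted p = 0.027 and 0.00225.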
